A study of Mus musculus with 6 samples.

Results

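Glucose transporters and glycolytic enzymes were followed through 10 genes in dendritic cells grown from mouse bone marrow. The genes were the transporters Slc2a1, Slc2a3 and Slc2a6, the hexokinases Hk1, Hk2 and Hk3, the phosphofructokinases Pfkl and Pfkp, lactate dehydrogenase A (Ldha) and phosphoglycerate kinase 1 (Pgk1). Every probe set whose annotation gave 1 symbol, and that symbol one of these, was taken, which gave 23 of the array's 45101 probe sets, for 10 of the 18194 genes named by such probe sets. The genes were chosen by their signals in the comparison of Ly6G+ DC with Ly6G- DC on these same 6 arrays, so their values are given as a description and no test of that comparison is reported for them. Marrow cells of C57BL/6 mice were kept with GM-CSF, a myeloid growth factor, at 10 ng/ml until day 6, and cells that displayed both CD11c and MHC class II were sorted by Ly6G, a surface protein typical of neutrophils. The sorted dendritic cells are called Ly6G+ DC and Ly6G- DC, and each population was measured on 3 arrays, numbered 1 to 3 in the titles. Strain, culture and growth factor were shared by both groups, and both were sorted from the same cultures at the same time. Nothing in the labels ties an array to a culture or says that the arrays of 1 population came from separate cultures or mice, so p-values rest on a spread between samples that may be technical.

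Glucose enters cells through facilitative transporters of the SLC2A (GLUT) family and is trapped inside by hexokinases as glucose 6-phosphate. Phosphofructokinase commits the sugar to glycolysis, phosphoglycerate kinase carries out the first step that returns ATP, and lactate dehydrogenase A turns pyruvate into lactate. Neutrophils are known for living largely on glycolysis, and dendritic cells are known to raise glycolysis when they are activated. Many of these genes are known targets of the hypoxia-inducible factor HIF-1, whose binding element has ACGTG as its usual core.

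RefSeq promoter windows (GRCm38.p6, 250 bases before to 50 after a start) were available for 9 of the 10 genes, in 11 windows, with Slc2a3 the gene without one. ACGTG was searched on both strands, and overlapping matches were each counted. It was found in 6 of the 11 windows and in 19.6% of all 32851 windows of the table. The most matches were in the first Ldha window, with 5, of which 4 come from 2 copies of the palindrome CACGTG, each matched on both strands. Pgk1, Hk2 and the window of Hk1 at chr10:62340372-62340671 had 2 matches each, Slc2a1 and Hk3 had 1 each, and Slc2a6, Pfkl, Pfkp and the other windows of Hk1 and Ldha had 0. The Ldha and Pgk1 windows are shown because these genes hold the probe sets with the log2 differences nearest to 0 between the sorted populations, and the capitals mark the matched bases. A match is a description of the sequence and not a site. The Ldha window lies at chr7:46845554-46845853 on the plus strand and the Pgk1 window at chrX:106186850-106187149 on the plus strand.
Ldha: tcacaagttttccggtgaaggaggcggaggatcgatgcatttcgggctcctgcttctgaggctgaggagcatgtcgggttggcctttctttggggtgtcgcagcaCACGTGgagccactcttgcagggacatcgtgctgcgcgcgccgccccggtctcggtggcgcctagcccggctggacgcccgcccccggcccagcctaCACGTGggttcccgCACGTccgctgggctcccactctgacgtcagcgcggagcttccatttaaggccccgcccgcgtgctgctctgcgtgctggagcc
Pgk1: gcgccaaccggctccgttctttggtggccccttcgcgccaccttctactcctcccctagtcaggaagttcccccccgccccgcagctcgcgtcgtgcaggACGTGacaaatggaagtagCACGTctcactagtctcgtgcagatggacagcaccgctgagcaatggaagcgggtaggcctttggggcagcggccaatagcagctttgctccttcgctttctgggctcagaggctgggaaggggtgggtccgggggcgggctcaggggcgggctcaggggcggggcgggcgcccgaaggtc

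Facts of all arrays bear on how the members can be read. Signals are the authors' scaled intensities, a linear brightness per probe set. The CD11c and MHC class II genes were bright in both groups, with Itgax at 2728 to 7884 on the Ly6G+ arrays, against 5610 to 9630 on the Ly6G- arrays, and H2-Ab1 at 10093 to 16313 on the Ly6G+ arrays, against 17389 to 21661 on the Ly6G- arrays. No probe set carried the name Ly6g in the platform annotation, and the sort marker was not checked. Control transcripts spiked in before hybridization were brighter on Ly6G+ DC 2 and on Ly6G- DC 2 and 3, with geometric means of 6688 to 12842. On the other 3 arrays these were 1529 to 2039. The brightness of these controls is not balanced across the sort, since bright ones were found on a lone Ly6G+ array. Gapdh, itself a glycolytic enzyme and a standard RNA control, had 3'-over-5' signal ratios of 0.839, 1.76 and 0.884 on Ly6G+ DC 1, 2 and 3, against 0.813, 3.11 and 3.50 on Ly6G- DC 1, 2 and 3. The same 3 arrays therefore stood apart in both measures.

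Slc2a3, which encodes the high-affinity glucose transporter GLUT3, was the member that separated the sorted populations. Probe set 1437052_s_at had signals of 6376, 3628 and 5040 on Ly6G+ DC 1, 2 and 3, against 666, 1237 and 451 on Ly6G- DC 1, 2 and 3. Probe set 1455898_x_at had 2283, 1550 and 2829 on the Ly6G+ arrays, against 296, 617 and 317 on the Ly6G- arrays. Every Ly6G+ array lay above every Ly6G- array in both probe sets, and the number 2 arrays lay nearest to each other. The difference in log2(signal + 16), Ly6G+ DC minus Ly6G- DC, was 2.74 ± 0.40 for the first and 2.43 ± 0.37 for the second (SE from limma), or 6.66-fold and 5.38-fold on that scale. Among arrays with dim spike-in controls the differences were 3.06 and 3.03, and among those with bright controls 2.25 and 1.77. Dim controls leave a lone Ly6G- array, and bright controls a lone Ly6G+ array. The other Slc2a3 probe sets were dim. 1421924_at had 225, 4.62 and 8.16 on the Ly6G+ arrays, against 26.1, 5.39 and 95.5 on the Ly6G- arrays, and 1427770_a_at had 168, 15.6 and 14.1 on the Ly6G+ arrays, against 30.0, 9.57 and 3.69 on the Ly6G- arrays. They failed the filter on dim probe sets, which kept what exceeded the 40th percentile of an array's signals on 3 or more of the 6 arrays, and their groups overlapped. The suffixes _s_at and _x_at mark probe sets that may also bind other transcripts, so the bright Slc2a3 signals carry that reservation.

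**Figure D1:**
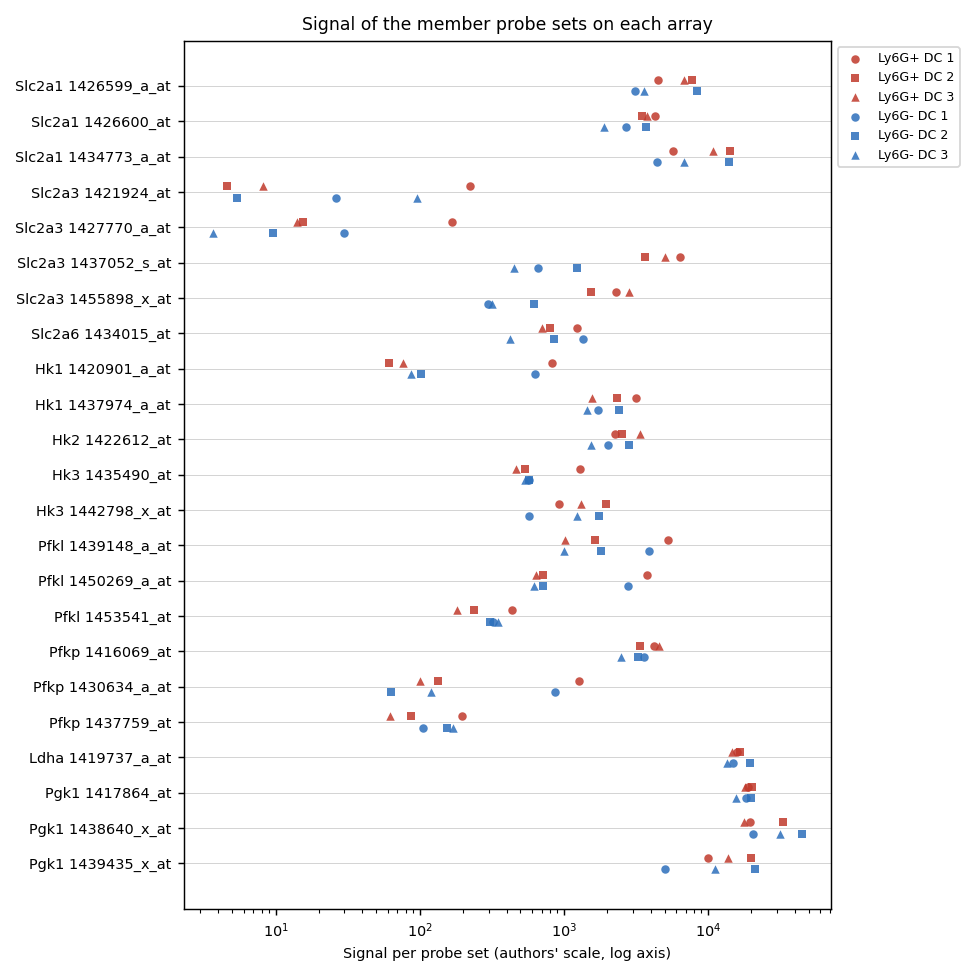
Signal of each of the 23 member probe sets (rows) on the 6 arrays, on a log axis in the authors' scaled intensity units. Red points are Ly6G+ DC and blue points, drawn just under them, Ly6G- DC; circles, squares and triangles are arrays 1, 2 and 3. Only 1437052_s_at and 1455898_x_at of Slc2a3 have all red points to the right of all blue points, and in several rows both circles stand apart from the other points.

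Slc2a1, which encodes GLUT1, the transporter behind basal glucose uptake in most cells, overlapped between the groups in all 3 of its probe sets. Probe set 1434773_a_at had 5743, 14146 and 10851 on Ly6G+ DC 1, 2 and 3, against 4456, 13917 and 6865 on Ly6G- DC 1, 2 and 3. Probe set 1426599_a_at had 4487, 7783 and 6847 on the Ly6G+ arrays, against 3101, 8410 and 3577 on the Ly6G- arrays. Probe set 1426600_at had 4308, 3473 and 3754 on the Ly6G+ arrays, against 2707, 3712 and 1912 on the Ly6G- arrays. On the number 2 arrays the populations had nearly the same signals, while Ly6G+ DC 1 and 3 lay above Ly6G- DC 1 and 3 in all 3 probe sets. The log2 differences were 0.35 ± 0.49, 0.45 ± 0.43 and 0.51 ± 0.33 (SE) for these probe sets in turn.

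Slc2a6 encodes GLUT6, a transporter held mostly inside the cell. Its single probe set, 1434015_at, had 1235, 805 and 710 on the Ly6G+ arrays, against 1350, 850 and 426 on the Ly6G- arrays, with a log2 difference of 0.17 ± 0.42 (SE). The groups overlapped, and both number 1 arrays lay above the other 4.

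None of the hexokinase probe sets separated the populations. Hk2, the inducible hexokinase, had 2256, 2539 and 3400 on Ly6G+ DC 1, 2 and 3, against 2013, 2850 and 1549 on Ly6G- DC 1, 2 and 3, a log2 difference of 0.37 ± 0.33 (SE). Hk3, the hexokinase found mainly in myeloid cells, had 1286, 534 and 467 on the Ly6G+ arrays, against 575, 577 and 539 on the Ly6G- arrays, with probe set 1435490_at. The single high value is that of Ly6G+ DC 1, and the 3 Ly6G- arrays lay within a narrow range. The other Hk3 probe set, 1442798_x_at, had 925, 1970 and 1322 on the Ly6G+ arrays, against 573, 1760 and 1238 on the Ly6G- arrays. Here the number 1 arrays were the lowest of all 6, the opposite of the pattern of 1435490_at in Ly6G+ DC. The log2 differences of these Hk3 probe sets were 0.28 ± 0.39 and 0.31 ± 0.44 (SE).

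Hk1, the hexokinase found in nearly all tissues, gave 2 unlike pictures. Probe set 1437974_a_at had 3149, 2336 and 1559 on Ly6G+ DC 1, 2 and 3, against 1716, 2424 and 1451 on Ly6G- DC 1, 2 and 3, a log2 difference of 0.31 ± 0.35 (SE). Probe set 1420901_a_at had 826, 60.9 and 76.3 on the Ly6G+ arrays, against 630, 102 and 87.4 on the Ly6G- arrays, with a difference of -0.13 ± 0.93 (SE). In 1420901_a_at the number 1 arrays of both populations were several times brighter than all others, and the populations overlapped.

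The liver-type phosphofructokinase gene Pfkl varied far more between array numbers than between populations in 2 of its 3 probe sets. Probe set 1439148_a_at had 5300, 1637 and 1022 on Ly6G+ DC 1, 2 and 3, against 3914, 1800 and 1006 on Ly6G- DC 1, 2 and 3. Probe set 1450269_a_at had 3752, 715 and 641 on the Ly6G+ arrays, against 2802, 720 and 620 on the Ly6G- arrays. In both, the signals of the populations nearly matched on arrays 2 and on arrays 3, and the number 1 arrays stood above the rest. The third, 1453541_at, had 439, 239 and 183 on the Ly6G+ arrays, against 323, 307 and 348 on the Ly6G- arrays. The log2 differences between the populations were 0.11 ± 0.62, 0.15 ± 0.72 and -0.26 ± 0.36 (SE).

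Pfkp, the platelet-type phosphofructokinase gene, had 1 even and 2 uneven probe sets. Probe set 1416069_at had 4216, 3397 and 4566 on Ly6G+ DC 1, 2 and 3, against 3572, 3263 and 2497 on Ly6G- DC 1, 2 and 3, with a log2 difference of 0.39 ± 0.30 (SE). Only Ly6G- DC 1 lay above a Ly6G+ array. Probe set 1430634_a_at had 1265, 133 and 101 on the Ly6G+ arrays, against 866, 63.0 and 120 on the Ly6G- arrays, again with both number 1 arrays on top. Probe set 1437759_at was dim, with 197, 86.7 and 61.9 on the Ly6G+ arrays, against 106, 155 and 171 on the Ly6G- arrays. Their log2 differences were 0.41 ± 1.0 and -0.40 ± 0.45 (SE), so the 3 probe sets did not share a direction.

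Ldha and the Pgk1 probe set 1417864_at had the log2 differences nearest to 0 of the 21 kept probe sets. Ldha had 16004, 16775 and 14687 on Ly6G+ DC 1, 2 and 3, against 14911, 19592 and 13496 on Ly6G- DC 1, 2 and 3. The Ly6G+ arrays lay inside the range of the Ly6G- arrays, and the means were 15822 ± 1056 on the Ly6G+ arrays and 16000 ± 3190 on the Ly6G- arrays (SD, n = 3 each). Pgk1 had 18868, 20267 and 18047 on the Ly6G+ arrays, against 18250, 20031 and 15597 on the Ly6G- arrays, with probe set 1417864_at. The log2 differences were 0.00 ± 0.35 for Ldha and 0.09 ± 0.35 for this Pgk1 probe set (SE). The highest signal of any probe set was 27320, 32052 and 26674 on Ly6G+ DC 1, Ly6G+ DC 3 and Ly6G- DC 1. It was 79712, 134237 and 138679 on Ly6G+ DC 2, Ly6G- DC 2 and Ly6G- DC 3. Whether the lower top on the former arrays narrowed the differences of bright probe sets such as these was not tested. The other Pgk1 probe sets carry the _x_at suffix and spread more widely. 1438640_x_at had 19504, 33358 and 17822 on the Ly6G+ arrays, against 20644, 44843 and 31752 on the Ly6G- arrays, and 1439435_x_at had 9946, 20012 and 13764 on the Ly6G+ arrays, against 5041, 21107 and 11103 on the Ly6G- arrays. Their log2 differences were -0.45 ± 0.45 and 0.40 ± 0.52 (SE). In 1438640_x_at every array with bright spike-in controls lay above every array with dim ones. Among arrays with dim controls its difference was -0.15, and among those with bright controls -0.18. For 1439435_x_at these values were 1.21 and 0.39.

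**Figure D2:**
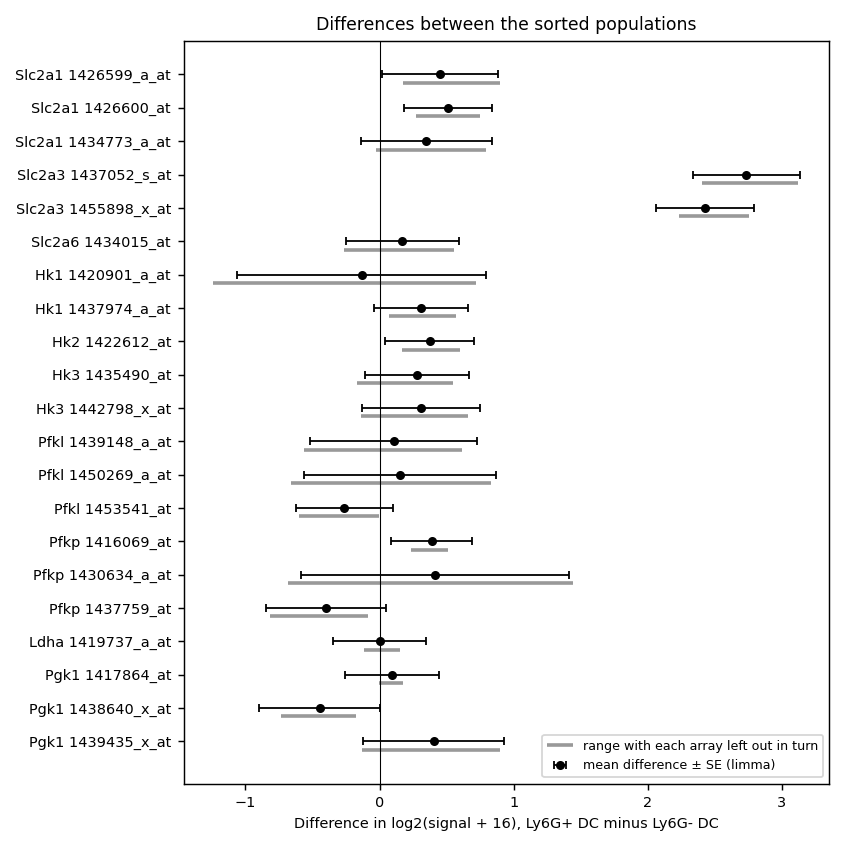
Difference in log2(signal + 16), Ly6G+ DC minus Ly6G- DC, for the 21 member probe sets kept by the filter. Black points are the difference of the 2 group means with its SE from limma, and grey bars span the values with each array left out in turn. The Slc2a3 probe sets lie at 2.74 and 2.43, and the other 19 lie between -0.45 and 0.51.

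Of the 23 member probe sets 21 passed the filter, each with a signal above the 40th percentile on all 6 arrays, so none passed through one group alone. The groups did not overlap for 2 of the 21, both of Slc2a3 and both higher in Ly6G+ DC. Over all 28254 kept probe sets, 4.49% were higher with no overlap and 7.24% lower. Positive log2 differences were found for 16 of the 21, where 45.0% of all kept probe sets were positive. The median over the 21 was 0.31, against -0.06 over all kept probe sets, and without Slc2a3 it was 0.28 over 19. Since the list was drawn up with this comparison in view, nothing is read from these counts. Scaling each array to a common median moved the median of all probe sets to 0.23, with 68.1% positive, and that of the members to 0.64, with 19 of 21 positive. The members' median lay 0.37 above that of all probe sets with the authors' scaling, 0.40 above it with a common median, 0.26 with quantile normalization and 0.20 with the side of the spike-in controls as a block. With that block the members' median was 0.18 and 13 of 21 were positive. Leaving out Ly6G+ DC 1 gave a median of 0.07, leaving out Ly6G- DC 3 gave 0.14, and leaving out both number 1 arrays gave 0.12.

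The number in the titles goes with the array name given there, Mouse430_2_2 for both number 1 arrays and Mouse430_2 for the others. Some member probe sets differed strongly by it. The mean of the number 1 arrays minus that of numbers 2 and 3 was 3.19 on the log2 scale for Pfkp 1430634_a_at, 2.93 for Hk1 1420901_a_at, and 2.24 and 1.77 for Pfkl 1450269_a_at and 1439148_a_at. It was -1.17 for Pgk1 1439435_x_at, -1.12 for Slc2a1 1434773_a_at and -1.07 for Hk3 1442798_x_at. In 5 of the 21 kept probe sets both number 1 arrays lay above all 4 others, where 14.3% of all kept probe sets did, and in 3 both lay below, where 14.7% did. Probe sets of the same gene moved in unlike ways: Hk1 1437974_a_at differed by 0.29 and Pfkp 1416069_at by 0.21. For 13 of the 21 the size of this difference was larger than that of the difference between the populations. The same count was not made over all kept probe sets, so nothing is read from it. For the Slc2a3 probe sets the difference of the number 1 arrays from the others was 0.20 and -0.22. Each population has 1 array of the name Mouse430_2_2, so the array name is balanced across the sort. What the array name stands for is not given in the sources used here.

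**Figure D3:**
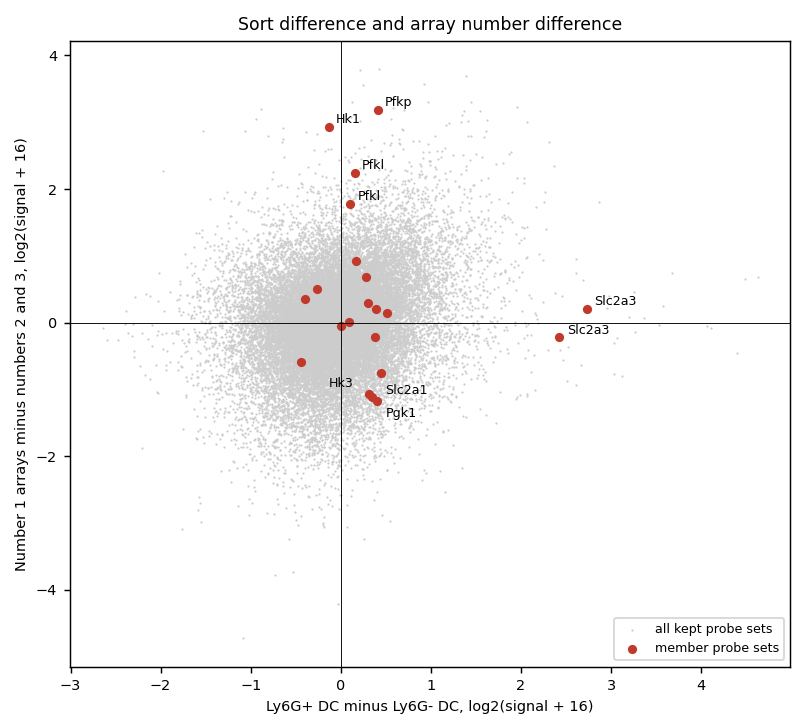
Difference between the populations (horizontal, Ly6G+ DC minus Ly6G- DC) and between the number 1 arrays and the other 4 (vertical), both in log2(signal + 16), for all 28254 kept probe sets in grey and the 21 members in red. The Slc2a3 probe sets lie far to the right near 0 on the vertical axis, and probe sets of Hk1, Pfkp and Pfkl lie high near 0 on the horizontal axis. Members beyond 1 on either axis are named.

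Genes whose pattern over the 6 arrays lay nearest to the brightest Slc2a3 probe set were Csf3r, the receptor for G-CSF, Cd177, a neutrophil surface protein, Ngp, a neutrophil granule protein, Adgb, which encodes androglobin, and Padi4, an enzyme that citrullinates histones. Likeness was the Euclidean distance between log2 values centred on each gene's mean, over 6 arrays and 13261 other genes, each by its brightest kept probe set. The distances were 0.771, 0.928, 0.946, 1.07 and 1.11. Signals of Csf3r were 1127, 419 and 981 on Ly6G+ DC 1, 2 and 3, against 129, 271 and 56.6 on Ly6G- DC 1, 2 and 3, so it too had the number 2 arrays nearest to each other. Cd177 and Adgb were dim in Ly6G- DC, at 2.70 to 42.8 and 4.42 to 22.1. Both passed the filter on dim probe sets through Ly6G+ DC alone, so their separation was partly set by the filter. Slc2a3 was itself chosen by its signals in the comparison of the populations, and its large difference between them weighs on the distance. Near genes that are higher in Ly6G+ DC therefore follow from that choice, and nothing is read from their direction.

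Most markers of neutrophils were higher in Ly6G+ DC, as Slc2a3 was. Slc2a3 was chosen by this comparison and the sort used a protein typical of neutrophils, so nothing is read from the shared direction. Of 18 measured neutrophil markers 17 had positive log2 differences and 15 did not overlap between the groups, all of these higher in Ly6G+ DC. Prtn3, Mpo and Elane overlapped, with log2 differences of -0.47, 0.21 and 0.79. Over all kept probe sets 45.0% were positive and 4.49% were higher with no overlap. Among the 15, Lrg1, Cxcr2 and Cd177 lay above the 40th percentile on 0 Ly6G- arrays. They passed the filter through Ly6G+ DC alone, so their separation was partly set by the filter. The summed signal of the 18 markers was 89251 to 117971 on the Ly6G+ arrays, against 12852 to 30023 on the Ly6G- arrays. Ly6G+ DC 2 was the lowest of its group and Ly6G- DC 2 the highest of its own, as for Slc2a3 1437052_s_at. For Ly6G+ DC 2 this rests on a small gap, 89251 against 92355 on Ly6G+ DC 1. S100a8, S100a9 and Mmp8 were each brighter on Ly6G+ DC 2 than on Ly6G+ DC 1. No marker was listed at 0 on any array, and the brightest, Mmp8 and S100a8, had log2 differences of 0.59 ± 0.35 and 3.53 ± 0.52 (SE). Of 14 dendritic cell markers, led by H2-Aa and Cd74, 0 were positive and 10 were lower in Ly6G+ DC with no overlap. Over all kept probe sets 7.24% were lower with no overlap. The sum of the 14 was 76485 to 150009 on the Ly6G+ arrays, against 127371 to 272655 on the Ly6G- arrays. H2-Aa weighs on this sum, with 62040 on Ly6G+ DC 2, 111128 and 120546 on Ly6G- DC 2 and 3, and 14475 to 22344 on the other arrays. Macrophage and monocyte markers, led by Csf1r and Fn1, were positive for 7 of 11, and 3 were higher with no overlap. They summed to 42967 to 52727 on the Ly6G+ arrays, against 31207 to 61734 on the Ly6G- arrays. Those of eosinophils, basophils and mast cells, led by Prg2 and Gata2, were positive for 5 of 7, and 2 were higher with no overlap. Their sum was 2288 to 4224 on the Ly6G+ arrays, against 1436 to 1987 on the Ly6G- arrays. Lymphocyte markers, led by Zap70 and Ms4a1, were positive for 0 of 5, and 2 were lower with no overlap. Their sum was 300.2 to 657 on the Ly6G+ arrays, against 849 to 1178 on the Ly6G- arrays. Erythroid markers, led by Car2 and Epor, were positive for 1 of 3, with 2484 to 3175 on the Ly6G+ arrays, against 2778 to 4327 on the Ly6G- arrays. The part of any of these cells in the Slc2a3 signal was not tested. In RNA from sorted pools, fewer cells of a type and less RNA per cell cannot be told apart.

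The other genes of glucose use were tested, because they were listed by function and not for how they moved, although earlier results of these arrays were known. Of 112 listed genes 88 had a kept probe set, 150 probe sets in all. By limma with Benjamini-Hochberg adjustment over all 28254 kept probe sets, 0 of the 150 passed an adjusted p under 0.05, as did 0 of all probe sets (0%), whose smallest adjusted p was 0.165. Among those that failed were the neutrophil markers Lrg1 and S100a9, with log2 differences of 4.63 ± 0.56 and 4.07 ± 0.65 (SE). The highest of the 150 was 1.44, so 0 calls does not show that these genes were alike in the populations. At an unadjusted p under 0.05 there were 7 higher and 1 lower of the 150, where 2.75% of all kept probe sets were higher and 2.87% lower. After scaling to a common median the counts were 17 and 0 of the 150, and 1775 and 239 over all probe sets in place of 778 and 811. The median log2 difference of the 150 was 0.16. The 8 probe sets under an unadjusted 0.05 were named after their values were seen, where the rule for named genes did not already take them, and each has an adjusted p of 0.836 by limma. Where a gene outside the members had several probe sets, the brightest kept one stands for it unless another is named.

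Of the 8 probe sets under an unadjusted 0.05, 2 were of glycogen genes. Pygl, the liver-type glycogen phosphorylase that releases glucose 1-phosphate from glycogen, had 7669, 4478 and 8654 on Ly6G+ DC 1, 2 and 3, against 4497, 2366 and 1586 on Ly6G- DC 1, 2 and 3. Only Ly6G+ DC 2 lay below a Ly6G- array, and the log2 difference was 1.37 ± 0.43 (SE). Gbe1, the glycogen branching enzyme, had 1056, 599 and 1457 on the Ly6G+ arrays, against 512, 507 and 329 on the Ly6G- arrays, with no overlap and a difference of 1.12 ± 0.37 (SE). Gyg, the primer protein of glycogen, and Ugp2, which makes UDP-glucose, had -0.65 ± 0.43 and 0.35 ± 0.31 (SE). Another Ugp2 probe set, 1434485_a_at, had 0.63 with no overlap. Of 21 kept probe sets on the glycogen list 12 were positive, with a median of 0.09.

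Slc16a1, which encodes the lactate and pyruvate transporter MCT1, had 205, 184 and 233 on Ly6G+ DC 1, 2 and 3, against 158, 15.4 and 84.5 on Ly6G- DC 1, 2 and 3. The groups did not overlap, and the log2 difference was 1.44 ± 0.57 (SE), with 0.43 among arrays with dim spike-in controls and 1.83 among those with bright ones. The brightest genes of the list of lactate and pyruvate fate were Pdk1, a kinase that blocks pyruvate dehydrogenase, Bsg, the chaperone of lactate transporters, and Mpc1, part of the mitochondrial pyruvate carrier. They had differences of 0.52 ± 0.44, 0.40 ± 0.51 and 0.15 ± 0.48 (SE), and these probe sets overlapped between the groups. The other kept Pdk1 probe sets had 0.45, -0.26 and 0.61, the last, 1435836_at, with no overlap. Of 22 kept probe sets 15 were positive, with a median of 0.22.

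Among the remaining glycolytic enzymes 1 of 26 kept probe sets was higher and 1 lower in Ly6G+ DC with no overlap, where 4.49% and 7.24% of all kept probe sets were. Aldoa, the main aldolase, Tpi1, triose phosphate isomerase, and Pgam1, a phosphoglycerate mutase, had log2 differences of -0.39 ± 0.43, 0.23 ± 0.34 and 0.53 ± 0.36 (SE), and all of these overlapped. The 26 had a median of 0.19, and 14 were positive. Ldhb, the other common lactate dehydrogenase chain, was the 1 probe set lower at an unadjusted p under 0.05: 1434499_a_at had 83.1, 46.6 and 66.3 on the Ly6G+ arrays, against 108, 179 and 146 on the Ly6G- arrays, a difference of -0.98 ± 0.40 (SE). Its other kept probe sets had 0.56, 0.18 and -0.49, so the gene has no single direction.

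Hexose transporters outside the members had 11 kept probe sets, 0 of them under an unadjusted 0.05, and a median of -0.01. The brightest were Slc37a4, the glucose 6-phosphate transporter of the endoplasmic reticulum, Slc2a8, which encodes GLUT8, and Slc37a2, a sugar phosphate exchanger, with log2 differences of 0.21 ± 0.39, -0.21 ± 0.31 and -0.06 ± 0.32 (SE). Among regulators of glycolysis and gluconeogenesis, Pfkfb4, which sets the level of the phosphofructokinase activator fructose 2,6-bisphosphate, had 1040, 575 and 852 on the Ly6G+ arrays, against 566, 452 and 266 on the Ly6G- arrays. Its groups did not overlap, and the difference was 0.94 ± 0.36 (SE). Pfkfb3, a related enzyme, and Pck2, the mitochondrial phosphoenolpyruvate carboxykinase, had 0.25 ± 0.48 and -0.28 ± 0.35 (SE), and the 15 probe sets of that list had a median of -0.28. The other kept probe sets of Pfkfb3 and Pck2 had the opposite sign, at -0.53 and 0.72. In the pentose phosphate pathway Rpia, ribose 5-phosphate isomerase, had 792, 855 and 904 on the Ly6G+ arrays, against 423, 671 and 537 on the Ly6G- arrays, a difference of 0.65 ± 0.29 (SE). Tkt, transketolase, Pgd, the second dehydrogenase of the pathway, and Taldo1, transaldolase, had -0.13 ± 0.39, 0.25 ± 0.40 and 0.18 ± 0.31 (SE), and the 14 probe sets had a median of 0.21. The other kept Tkt probe sets had 0.06 and 0.24.

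Genes that regulate or respond to oxygen and glucose had 41 kept probe sets with a median log2 difference of 0.21, 27 of them positive. In 18 of the 41 both number 1 arrays lay above all 4 others, as in 42 of the 150 probe sets of all these lists, where 14.3% of all kept probe sets did. Adm, a hormone gene known to respond to hypoxia, had 132, 176 and 133 on the Ly6G+ arrays, against 89.0, 43.3 and 56.7 on the Ly6G- arrays. It lay above the 40th percentile on all Ly6G+ arrays but on only 1 Ly6G- array. Myc, a transcription factor that drives many glycolytic genes, had 197, 240 and 368 on the Ly6G+ arrays, against 129, 169 and 76.9 on the Ly6G- arrays. Neither overlapped between the groups, and the differences were 1.08 ± 0.40 and 1.03 ± 0.39 (SE). The brightest genes of the list, the endoplasmic reticulum oxidase Ero1a, the mitophagy receptor Bnip3 and the thioredoxin inhibitor Txnip, had 0.30 ± 0.39, 0.56 ± 0.42 and 0.06 ± 0.35 (SE). Of these probe sets that of Bnip3 alone did not overlap. The other Ero1a probe sets, 1419029_at and 1419030_at, had 0.68 ± 0.33 with no overlap and 1.04 ± 0.57 with overlap (SE). Hif1a, the oxygen-regulated subunit of HIF-1, was added after its values were seen: 1427418_a_at, its brightest probe set, had 4642, 5202 and 6362 on the Ly6G+ arrays, against 4551, 5264 and 6429 on the Ly6G- arrays. Both populations had nearly the same signals at each number. The other kept Hif1a probe sets had log2 differences of 0.32, -0.33 and -0.28, each with overlap.

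**Figure D4:**
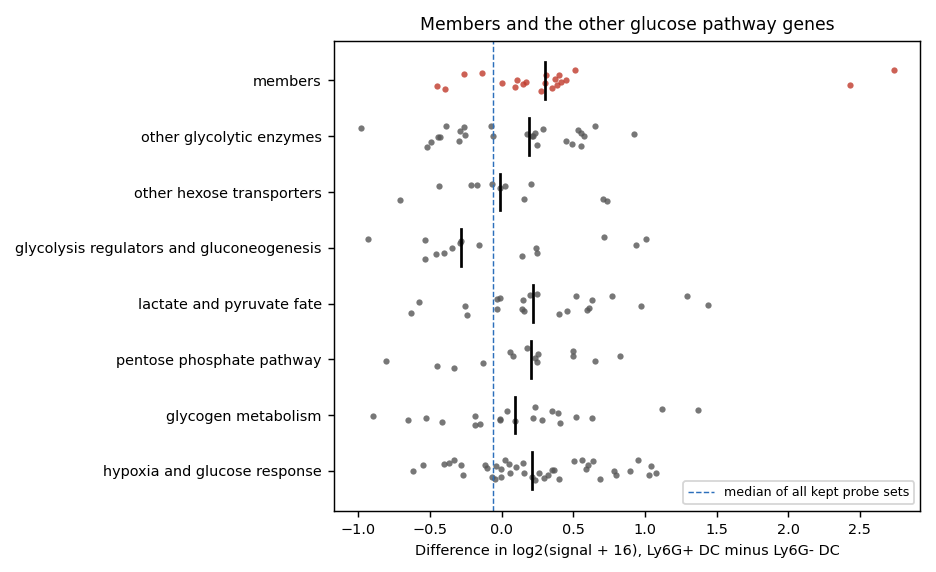
Difference in log2(signal + 16), Ly6G+ DC minus Ly6G- DC, of each kept probe set of the members (red) and of the 7 other lists (grey), with a black bar at each list's median and a dashed line at the median of all kept probe sets, -0.06. The Slc2a3 points at 2.43 and 2.74 lie beyond every point of the other lists, whose highest is 1.44. Vertical scatter within a row is only for display.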

How the data were processed

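Affymetrix Mouse Genome 430 2.0 signals of 6 samples were used. The deposited intensity values are linear, and on every array their mean, once the top and bottom 2% are trimmed, is 250.0, which shows the authors' scaling. Software named in the submitters' processing notes is MAS5, GCOS and Affymetrix Expression Console 2.0; its settings are not given in the sources used here. No detection calls were used, so the 40th percentile of each array served as the limit for dim probe sets, and a common scale lets a brighter array shift all probe sets. The platform annotation gave 1 symbol to 34958 probe sets, several to 932 and none to 9211.

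Of 45101 probe sets, 64 controls were left out of the tests, and 28254 lay above the 40th percentile of an array on at least 3 arrays. log2(signal + 16) was compared with limma 3.58.1 in R 4.3.3 (group alone, eBayes with an intensity trend, Benjamini-Hochberg). The pseudocount understates differences of dim probe sets. The fit was tested on simulated data with independent noise of equal spread for every probe set. The real arrays differ by number and by spike-in controls, so that test does not show what the fit can find in them. SE are from limma, and the number of arrays limits the precision. Named genes were all member probe sets, the 3 brightest genes of each other pathway list, the 2 brightest of each marker list and the 5 nearest to Slc2a3. Members and lists were chosen with earlier results of these data known. Alternatives were other scalings, pseudocounts of 1 and 64, no filter and a 60th percentile filter, no trend, 3 blocks, 1 probe set a gene and each array left out.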

Additional observations from a re-analysis of the deposited data

How the results depend on the processing

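With the group alone, 0 of all probe sets passed limma's adjusted threshold, and this was also the count with pseudocounts of 1 and 64, quantile normalization, a common median, the 60th percentile filter, no filter, no intensity trend, the block for the spike-in control side and 1 probe set a gene. It was 19 with the replicate block, 21 with the array name as a block and 33 without both number 1 arrays, the last chosen after seeing the data. Leaving out each array in turn gave 0 to 1, with the 1 call without Ly6G- DC 2. The cause was not tested. Among the other pathway genes the count was 0 under each of these. Deviations of same-numbered arrays from their group means correlated at 0.520, 0.263 and -0.043 for numbers 1, 2 and 3 over kept probe sets. Ly6G+ DC 2 correlated at 0.322 with Ly6G- DC 3. Ly6G+ DC 2 and Ly6G- DC 2 and 3 share bright spike-in controls, so these correlations cannot decide whether the numbers pair the samples. The labels state no pairing, so the fit used none. The number 1 arrays, with the highest of these correlations, also share an array name.

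The members' median log2 difference lay between 0.07 and 0.64 under these alternatives. Of the 21 kept member probe sets 12 changed sign under at least 1 of them and 9 did not. Slc2a3 stayed between 2.41 and 3.12 for 1437052_s_at and between 2.20 and 2.75 for 1455898_x_at. Correction of background could not be varied, since the scanner files were not used here. With 3 arrays a group, small differences of the even members could not be resolved. With the group alone in the fit, even the large difference of Lrg1 did not pass the adjusted threshold.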
